A study of Mus musculus with 12 samples.

Results

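The response to rosiglitazone was studied in adipocyte cultures that carried a floxed Prdm16 gene and had been given ethanol. It was measured as the log2 value on the 3 arrays named EtOH_Rosi minus that on the 3 arrays named EtOH. These are 6 of the 12 Affymetrix arrays of the series, and the difference was computed for 22180 genes, each through its brightest probe set among those with a single gene symbol. All cells were adipose precursors from the inguinal fat of mice of the genotype R26Cre/Prdm16floxEx9, so every group carried the Cre and the floxed allele. Growing cells received ethanol, the vehicle, for 3 days, and were then differentiated with 10% serum, isobutylmethylxanthine, indomethacin, dexamethasone, insulin and the thyroid hormone T3. The EtOH_Rosi cultures are labelled as given 1 uM rosiglitazone and the EtOH cultures as given none, although a protocol text shared by all samples also names the drug. At what stage of differentiation the drug was added, and for how long, was not analysed here. The 6 arrays of the 4OHT and 4OHT_Rosi groups came from the same kind of cells given 1 uM 4-hydroxytamoxifen in place of ethanol, a ligand used to activate tamoxifen-inducible Cre. They entered the estimate of the spread and a last comparison. The labels do not say that replicates were separate cultures, so p-values rest on the spread from array to array, and that may be technical in origin. Nor do they say how many animals the precursors came from.

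Rosiglitazone is a synthetic ligand of PPARgamma, the nuclear receptor that drives fat cell formation. PPARgamma binds DNA with its partner RXR, mostly at a direct repeat of a hexamer with a spacer base between the copies, and switches on genes that take up, store and burn fatty acids. In white fat precursors, prolonged exposure to such ligands is known to bring out a beige state with more mitochondria and the uncoupling protein Ucp1, and PRDM16 is a zinc finger coregulator that helps to bring that state about. The ligand is also known to lower leptin and inflammatory genes.

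To show the element in question beside genes that changed, 3 promoters of genes described below are printed, each from 250 bases before the gene start up to it, as RefSeq gives them for GRCm38.p6. Aqp7, a glycerol channel, lies at chr4:41047963-41048212 on the minus strand, Cd36, a fatty acid transporter, at chr5:17835897-17836146 on the minus strand, and Plin2, a lipid droplet coat protein, at chr4:86670060-86670309 on the minus strand. Each is written 5′ to 3′ along its gene. The capitals mark the stretch of 13 bases that matched 2 copies of AGGTCA separated by 1 base with at most 2 mismatches over the 12 fixed letters, here on the opposite strand.
Aqp7: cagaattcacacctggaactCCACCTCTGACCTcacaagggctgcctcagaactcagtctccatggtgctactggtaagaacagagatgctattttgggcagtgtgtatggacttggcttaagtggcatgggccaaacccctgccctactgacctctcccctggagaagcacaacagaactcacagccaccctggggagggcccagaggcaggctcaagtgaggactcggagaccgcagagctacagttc
Cd36: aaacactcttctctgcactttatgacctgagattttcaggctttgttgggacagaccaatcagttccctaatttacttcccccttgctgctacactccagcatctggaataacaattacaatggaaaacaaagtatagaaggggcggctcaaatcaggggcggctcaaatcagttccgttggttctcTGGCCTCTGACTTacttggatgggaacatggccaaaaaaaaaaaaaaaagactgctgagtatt
Plin2: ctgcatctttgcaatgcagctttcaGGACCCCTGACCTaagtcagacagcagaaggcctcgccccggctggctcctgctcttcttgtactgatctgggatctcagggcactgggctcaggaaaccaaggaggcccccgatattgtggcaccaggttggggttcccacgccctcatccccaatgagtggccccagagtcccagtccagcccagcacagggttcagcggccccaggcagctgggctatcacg
The marked stretches begin at -230, -63 and -225 from the gene start. Both strands were searched, in windows from 250 bases before to 50 bases after the start. Such a stretch occurred in 4.05% of the 16990 tested genes with a window. The share was 4.66% of 2597 genes that rose with rosiglitazone, 2.64% of 2761 that fell and 4.25% of the others. Among genes changed at least 2-fold it was 6.81% of 191 that rose and 5.41% of 222 that fell. Among the other genes picked by the naming rule, it also occurred in Acot4, Clock, Mogat1, Prdx3 and Slc25a20, which rose, and in Cxcl12, Reg1, Rps4x and Rxra, which fell. These names leave out genes without a call and genes of 1 chromosome, so the list is not complete. The 3 printed were chosen after their values were seen. A match is a description of these letters and not of binding.

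In the adipocyte check, Adipoq, Plin1, Lipe and Cidec were measured on all 6 arrays with values from 10.30 to 13.01. The 12 arrays had medians from 5.97 to 6.05 on a scale that ran from 3.05 to 13.91. Arrays of 1 group correlated across genes at r of 0.996 to 0.998. Among the 6 arrays, EtOH and EtOH_Rosi separated on the first principal component, with 78.7% of the variance. On the second, with 7.27%, EtOH_Rosi 3 stood apart at 15.12, while EtOH_Rosi 1 lay at -10.16 and EtOH_Rosi 2 at -6.93. Results that turn on EtOH_Rosi 3 are given with and without it below.

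With rosiglitazone 3191 genes were higher, 14.4% of the 22180 tested, and 3623 were lower, 16.3%, at an adjusted p under 0.05 in limma, which together made 30.7%. Most changes were small. The median size among these genes was 0.41 on the log2 scale, and 240 of the higher and 315 of the lower genes differed at least 2-fold. At 4-fold or more there were 33 higher and 12 lower genes. The median over all genes was 0.01. Centring each array on its median turned the balance of calls, to 3812 higher and 3111 lower genes, or 55.1% higher beside 46.8%. Without EtOH_Rosi 3 there were 2867 higher and 3258 lower genes. The 3 EtOH_Rosi arrays all lay above the 3 EtOH arrays in 4403 genes (19.9%) and all below them in 4629 (20.9%).

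**Figure D1:**
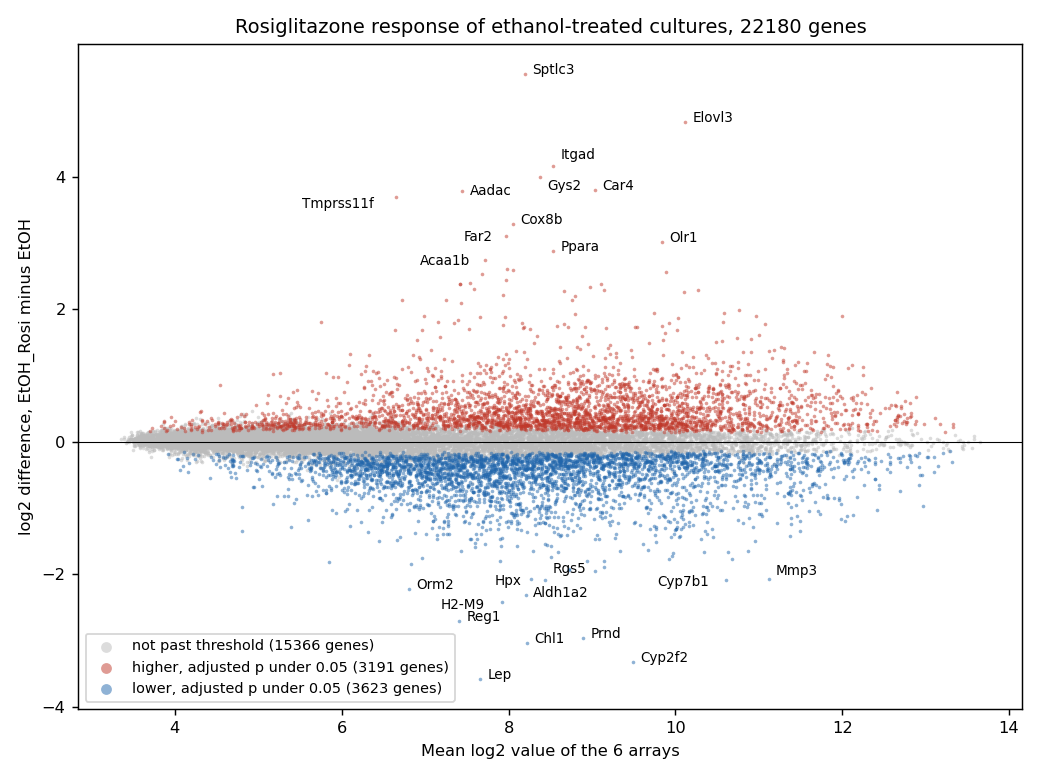
Each point is 1 of 22180 genes. The horizontal axis is the mean log2 value of the 6 arrays and the vertical axis the log2 difference between the EtOH_Rosi and EtOH means of 3 arrays each. Red and blue mark the 3191 higher and 3623 lower genes, and the named points are the 12 largest rises and 12 largest falls by the naming rule, from Sptlc3 at 5.54 to Lep at -3.57.

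The largest rise was in Sptlc3, a subunit of serine palmitoyltransferase, which starts sphingolipid synthesis. Its log2 values were 5.38, 5.71 and 5.17 in EtOH and 10.98, 11.04 and 10.87 in EtOH_Rosi. The difference was 5.54 ± 0.12 (SE), or 46.6-fold (limma adjusted p = 1.59e-11). The groups did not overlap, which the naming rule required of the 12 largest rises and 12 largest falls. All 3 EtOH values of Sptlc3, and those of Aadac, Tmprss11f, Ucp1 and Cidea below, lay under the lowest array median of 5.97. The values used carry no background call, so their folds rest on dim signals whose distance from background was not tested. Elovl3, a fatty acid elongase known from brown fat, had 8.22, 7.51 and 7.39 in EtOH and 12.58, 12.52 and 12.47 in EtOH_Rosi. It rose by 4.82 ± 0.16, or 28.2-fold (adjusted p = 5.54e-10), and the spread among its EtOH arrays was much smaller than this gap. Itgad, an integrin alpha subunit best known from leukocytes, had 6.28, 6.49 and 6.59 against 10.56, 10.75 and 10.52 (4.16 ± 0.10, 17.8-fold). Gys2, the liver form of glycogen synthase, had 6.72, 6.26 and 6.15 against 10.32, 10.48 and 10.31 (3.99 ± 0.11, 15.9-fold). In both genes no array of one group came within 3 log2 units of the other.

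Other large rises fell in enzymes of lipid handling and in membrane proteins. Car4, a membrane carbonic anhydrase, rose 13.9-fold, and Aadac, an esterase of the endoplasmic reticulum, 13.7-fold. Tmprss11f, a membrane serine protease, rose 12.9-fold, with EtOH_Rosi 3 at 7.97 and the other 2 at 8.74 and 8.78. Far2, which reduces fatty acyl-CoA to fatty alcohol, rose by 3.10 ± 0.15. Olr1, a scavenger receptor for oxidised lipoproteins and a known PPARgamma target, rose by 3.01 ± 0.14. Acaa1b, a thiolase of peroxisomal fatty acid oxidation, rose by 2.74 ± 0.10. Its near-identical copy Acaa1a could share signal with it.

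Leptin, Lep, the fat hormone that reports energy stores, showed the largest fall. Its values were 9.49, 9.35 and 9.49 in EtOH and 5.77, 6.34 and 5.50 in EtOH_Rosi. The difference was -3.57 ± 0.18, 11.9-fold lower (adjusted p = 2.29e-08), and the lowest EtOH array lay 3 log2 units above the highest EtOH_Rosi array. The values 5.77 and 5.50 lay under the lowest array median of 5.97, as did some EtOH_Rosi values of Reg1, Orm2 and Il6 below. The folds of these falls also rest on dim signals whose distance from background was not tested. Cyp2f2, a monooxygenase, had 11.20, 11.15 and 11.13 against 8.03, 7.87 and 7.59 (-3.33 ± 0.13, 10.1-fold lower). Its dim second probe set gave -0.33. Chl1, a cell adhesion molecule of the L1 family, fell by 3.04 ± 0.45 (adjusted p = 0.000119), with a wide spread from 7.49 to 6.03 among the EtOH_Rosi arrays. Prnd, a prion-like surface protein, fell by 2.96 ± 0.21, while its dim second probe set gave 0.06.

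Among the other large falls, several encode secreted or plasma proteins. Reg1, a secreted lectin, fell by 2.70 ± 0.32, Orm2, an acute phase lipocalin, by 2.23 ± 0.20 and the heme carrier hemopexin, Hpx, by 2.08 ± 0.11. Orm genes are near-identical copies, so which of them gave the Orm2 signal is uncertain. Aldh1a2, an enzyme that makes retinoic acid, fell by 2.31 ± 0.26, and Cyp7b1, which hydroxylates oxysterols, by 2.09 ± 0.18. H2-M9, a non-classical MHC class I gene, fell by 2.42 ± 0.17. Rgs5, a brake on G protein signalling known from pericytes, fell by 2.09 ± 0.20, and its dim second probe set gave -0.57. The matrix protease Mmp3 fell by 2.07 ± 0.16, from 12.11, 12.18 and 12.17 to 10.26, 10.07 and 9.93.

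**Figure D2:**
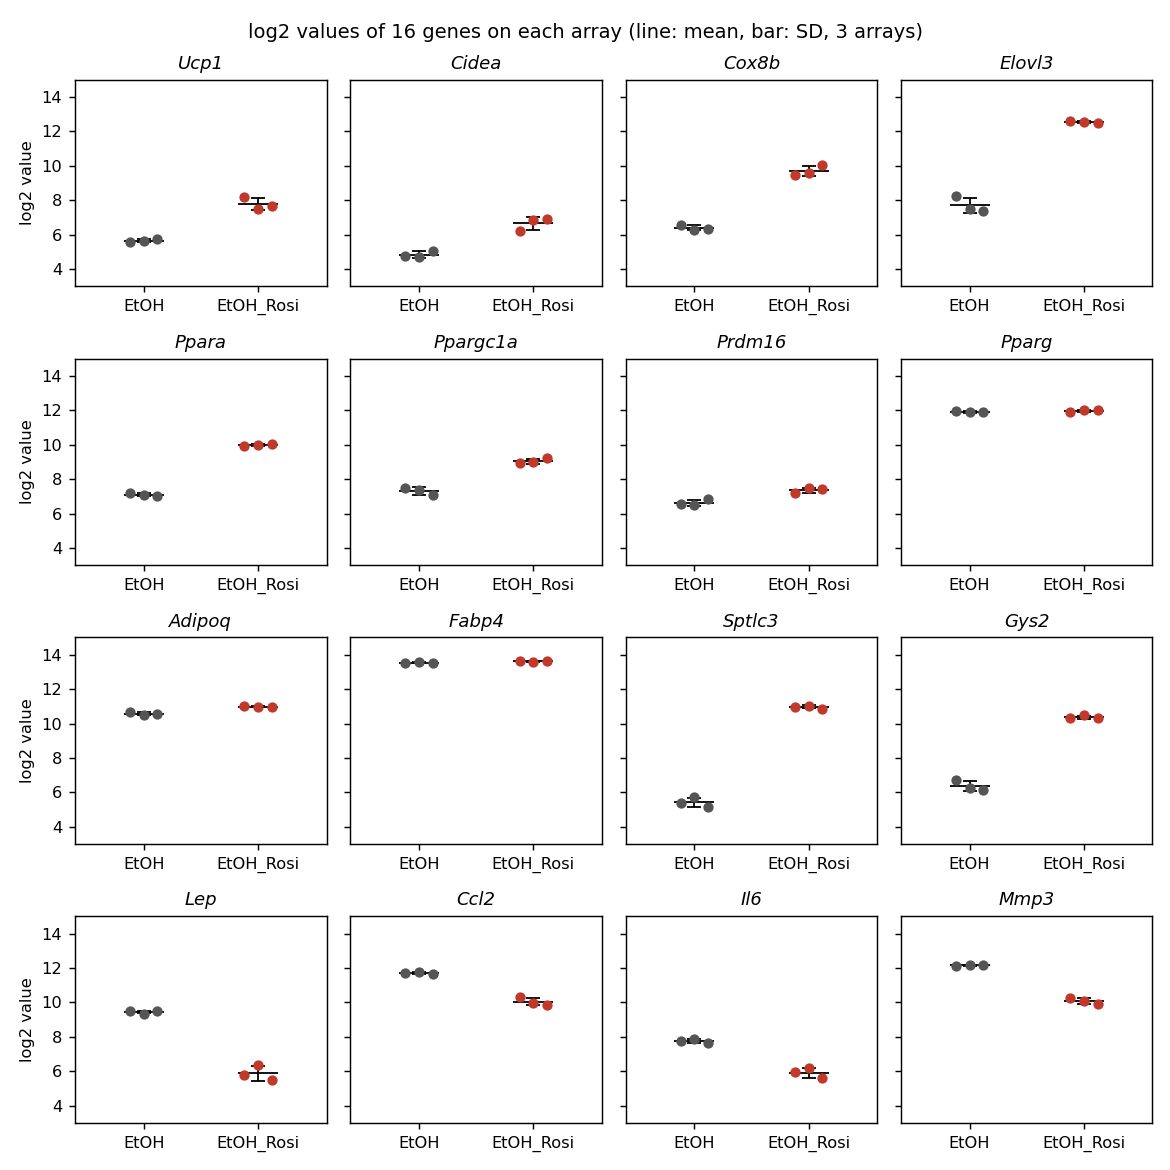
Each panel is 1 gene and each point 1 array. The vertical axis is the log2 value, black lines are means and bars the SD of 3 arrays. Ucp1, Cidea, Cox8b and Elovl3 were higher on all EtOH_Rosi arrays and Lep, Ccl2, Il6 and Mmp3 lower, while Pparg stayed between 11.87 and 11.99 on all 6.

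The gene lists below hold 825 distinct tested genes. A gene can stand in more than 1 list, and a member without a probe set of a single symbol was not analysed here. Counts of members are read beside the 14.4% of all genes that rose and the 16.3% that fell, and medians beside 0.01. Those shares include dim genes, while most lists hold mainly bright ones. The median level was reached by 40 of 41 interferon-stimulated and 20 of 21 lipogenesis genes, but by 5 of 16 skeletal muscle markers. Genes at or above it, fitted alone, gave 3032 rises and 3403 falls, so calls were denser among bright genes. A count somewhat above the shares need not be particular to its list. Shares matched for brightness were not computed.

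Pparg, the receptor gene itself, had 11.96, 11.88 and 11.87 in EtOH and 11.91, 11.99 and 11.99 in EtOH_Rosi, a difference of 0.06 ± 0.05 (adjusted p = 0.473) with overlapping arrays. Of 37 genes of the PPARgamma machinery and adipogenic transcription factors, 15 rose and 8 fell, with a median of 0.07. Without EtOH 1 the falls were 5. The partner receptor Rxrg had 7.41, 7.47 and 7.25 against 8.49, 8.53 and 8.56, and rose by 1.15 ± 0.07 (adjusted p = 6.2e-08). Rxrb rose by 0.32 ± 0.07, and Rxra fell by 0.17 ± 0.05 (adjusted p = 0.0253). The Rxra call was lost without EtOH 1, EtOH 3, EtOH_Rosi 1 or EtOH_Rosi 2.

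Ppara, a sister receptor that drives fatty acid oxidation, was the list's largest change. It had 7.20, 7.08 and 7.02 in EtOH and 9.91, 9.99 and 10.03 in EtOH_Rosi, and rose 7.34-fold (2.88 ± 0.09, adjusted p = 2.47e-10). Ppard differed by 0.02 ± 0.07 (adjusted p = 0.897). The liver X receptor gene Nr1h3 rose by 0.52 ± 0.07 and Ebf2, a factor of brown and beige precursors, by 0.50 ± 0.07. Among C/EBP factors, which act beside PPARgamma in adipogenesis, Cebpb rose by 0.27 ± 0.06 and Cebpa by 0.25 ± 0.07, and Cebpd, which acts early, fell by 0.48 ± 0.06. The Cebpa call was lost without EtOH 2, EtOH 3 or EtOH_Rosi 3. Falls also came in the Kruppel-like factors Klf15 (-0.65 ± 0.11), Klf4 (-0.55 ± 0.08), Klf3 (-0.54 ± 0.06) and Klf5 (-0.37 ± 0.08). Srebf1, the lipogenic transcription factor, was at 0.04 ± 0.07 (adjusted p = 0.745).

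Of 41 known PPARgamma target genes, 33 rose and 2 fell, with a median of 0.81. The 2 that fell were Gpihbp1 (-1.13 ± 0.14), which holds lipoprotein lipase on capillary endothelium, and Cd5l (-0.50 ± 0.15), a gene of macrophages. Without EtOH 2, EtOH_Rosi 1 or EtOH_Rosi 2 the falls were 1, and the Cd5l call was lost without EtOH 1 as well. Some bright targets moved little. Fabp4, the fatty acid binding protein of fat cells, had 13.52, 13.56 and 13.53 against 13.66, 13.58 and 13.61 (0.08 ± 0.05, adjusted p = 0.297), close to the top of the scale at 13.91. Lpl, lipoprotein lipase, was at -0.02 ± 0.05 (adjusted p = 0.831). Cd36 had 13.11, 13.02 and 12.99 against 13.35, 13.32 and 13.26 and rose by 0.27 ± 0.06 (adjusted p = 0.00372). How far such values are compressed near the top of the scale was not tested.

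Other targets, bright ones among them, rose further. Cidec, which fuses lipid droplets, had 11.08, 10.99 and 11.07 in EtOH and 12.98, 13.01 and 12.82 in EtOH_Rosi, 3.71-fold higher (1.89 ± 0.07, adjusted p = 1.47e-09). Pdk4, the kinase that closes the path from pyruvate to the mitochondria, had 9.24, 9.02 and 9.04 against 10.90, 11.00 and 11.00 (1.87 ± 0.10). Angptl4, a secreted inhibitor of lipoprotein lipase, had 10.65, 10.52 and 10.50 against 11.96, 12.03 and 11.95 (1.42 ± 0.07). In these 3 genes the arrays of a group lay close together and far from the other group. Hcar2, a receptor for nicotinic acid and ketone bodies, rose by 1.78 ± 0.14, and Trarg1, a partner of glucose transporter vesicles, by 1.54 ± 0.05. The secreted factor gene Fgf21 was at 0.21 ± 0.10 (adjusted p = 0.157).

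Genes that coat and build lipid droplets rose in 15 of 22 cases and fell in 0, with a median of 0.32. Without EtOH 3 there was 1 fall. Plin5, the perilipin of oxidative tissues that ties droplets to mitochondria, had 6.78, 6.24 and 7.01 in EtOH and 9.29, 9.23 and 9.32 in EtOH_Rosi (2.60 ± 0.17, 6.08-fold higher). Plin4 rose by 0.87 ± 0.07, Plin2 by 0.81 ± 0.06 and Plin1, the main droplet coat of white fat, by 0.22 ± 0.05. The droplet budding gene Fitm2 rose by 0.92 ± 0.06, and the caveolar coat gene Cavin2 by 1.35 ± 0.07.

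Triglyceride synthesis genes went both ways, with 11 of 19 higher, 3 lower and a median of 0.35. The glycerol channel gene Aqp7 had 10.28, 10.13 and 10.03 against 11.32, 11.40 and 11.31 (1.20 ± 0.06), Gpd1, which makes glycerol phosphate, rose by 1.12 ± 0.06, and Pck1, the enzyme of glyceroneogenesis, by 0.45 ± 0.06. Lpin1, the phosphatidate phosphatase, rose by 1.14 ± 0.08. The acyltransferase Dgat2, which makes triglyceride, had 12.09, 11.89 and 11.91 against 10.72, 10.81 and 10.90 and fell by 1.15 ± 0.08 (adjusted p = 2.12e-07). Gpam, the acyltransferase that starts the pathway, fell by 0.65 ± 0.07. The remaining fall was in Mboat1 (-0.37), named after its value was seen.

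Fatty acid uptake and carrier genes rose in 8 of 22 cases and fell in 4, with a median of 0.10. The transporter Slc27a1 had 9.83, 9.71 and 9.48 in EtOH and 11.44, 11.52 and 11.48 in EtOH_Rosi, 3.50-fold higher (1.81 ± 0.10). Slc27a4 rose by 0.90 ± 0.08 and the lipoprotein receptor Vldlr by 1.04 ± 0.08. Apoe, an apolipoprotein that macrophages also make, fell by 0.56 ± 0.07. The other 2 falls, named after their values were seen, were in Lrp1 (-0.32) and Apoc1 (-0.31).

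Of the genes for making fatty acids from glucose, 7 of 21 rose and 2 fell, with a median of 0.13. Without EtOH 2 the rises were 4. Acacb, the acetyl-CoA carboxylase at mitochondria, rose by 1.63 ± 0.09 and the citrate carrier Slc25a1 by 0.33 ± 0.06. The desaturase Scd3 had 6.40, 6.31 and 6.32 against 8.68, 8.48 and 9.03 (2.39 ± 0.21), but Scd1 to Scd3 are close copies and Scd3 may hold signal from the others. Fatty acid synthase, Fasn, was at -0.05 (adjusted p = 0.582). Elovl6, the elongase acting on palmitate, had 11.69, 11.35 and 11.45 against 10.62, 10.70 and 10.60 and fell by 0.86 ± 0.09, and the desaturase Fads2 fell by 0.31 ± 0.06.

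Lipolysis and adrenergic signalling genes rose in 15 of 19 cases and fell in 2, with a median of 0.51. The triglyceride lipase Pnpla2 rose by 0.35 ± 0.06, the hormone-sensitive lipase Lipe by 0.51 ± 0.05 and the monoglyceride lipase Mgll by 0.71 ± 0.06. Brakes on lipolysis rose with them. Pde3b, which degrades cyclic AMP under insulin, rose by 1.19 ± 0.09, the lactate receptor Hcar1 by 0.69 ± 0.09 and G0s2, an inhibitor of Pnpla2, by 0.51 ± 0.08. The 2 falls, named after their values were seen, were in Adcy4 (-0.68) and Prkar1a (-0.17). Leaving out EtOH 1 or 2, EtOH_Rosi 2 or 3, or any of the 3 arrays of the 4OHT group left 1 fall.

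Among 43 brown and beige fat genes, 20 rose and 4 fell, with a median of 0.21. Ucp1, which uncouples respiration to make heat, had 5.59, 5.63 and 5.73 in EtOH and 8.20, 7.51 and 7.65 in EtOH_Rosi. It rose 4.40-fold (2.14 ± 0.14, adjusted p = 1.19e-07). Cidea, a droplet protein abundant in brown fat, had 4.76, 4.71 and 5.07 against 6.20, 6.85 and 6.92 (1.81 ± 0.15, 3.51-fold higher). In both genes the lowest EtOH_Rosi array lay above the highest EtOH array. Prdm16 had 6.55, 6.49 and 6.84 against 7.20, 7.46 and 7.44 (0.74 ± 0.10, adjusted p = 5.43e-05). Its dim second probe set gave 0.09, and the positions of both probe sets along the gene were not analysed here.

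The muscle-type cytochrome oxidase subunits found in brown fat rose strongly. Cox8b had 6.57, 6.30 and 6.35 in EtOH and 9.46, 9.57 and 10.04 in EtOH_Rosi, 9.74-fold higher, and Cox7a1 had 10.24, 10.03 and 9.79 against 11.82, 11.91 and 12.01, 3.71-fold higher. The coactivators that drive mitochondrial biogenesis, Ppargc1a and Ppargc1b, rose by 1.73 ± 0.13 and 1.72 ± 0.09. Ppargc1a had 7.51, 7.35 and 7.09 against 8.94, 8.99 and 9.21. Otop1, a proton channel described in beige fat, had 6.10, 6.23 and 6.37 against 8.56, 8.69 and 8.57 (2.37 ± 0.08). The secreted factor Nrg4 rose by 0.99 ± 0.11, the mitochondrial deacetylase Sirt3 by 1.10 ± 0.07, Letmd1 by 1.20 ± 0.05 and Esrra, a nuclear receptor of mitochondrial genes, by 0.47 ± 0.07.

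Not all genes associated with brown or beige cells moved with Ucp1. The deiodinase Dio2 was at 0.17 ± 0.12 (adjusted p = 0.345), and the beige surface markers Tmem26 (-0.05 ± 0.07) and Tnfrsf9 (0.13 ± 0.10) and the marker Tbx1 (0.05 ± 0.11) did not pass. Cited1, also used as a beige marker, rose by 0.39 ± 0.10 (adjusted p = 0.0113), a call lost without EtOH 1 or EtOH_Rosi 3. Of the markers of classical brown fat, Zic1 was at 0.10 ± 0.07 and Lhx8 fell by 0.39 ± 0.12 (adjusted p = 0.0285). The Lhx8 call was lost without EtOH 1, EtOH 2, EtOH_Rosi 1 or EtOH_Rosi 2 and after quantile normalization or median centring. The other falls were Kng2, a kininogen gene (-1.39 ± 0.11), the nucleoside transporter Slc29a1 (-0.94 ± 0.11) and Elovl6. Among genes of futile cycles, the creatine kinase Ckb rose by 0.23 ± 0.08 (adjusted p = 0.0346). That call was lost after quantile normalization and without EtOH 1, EtOH 3, EtOH_Rosi 2 or EtOH_Rosi 3. Ckmt2 (-0.04 ± 0.06), Ryr2 (0.07 ± 0.06) and Atp2a2 (-0.12 ± 0.05, adjusted p = 0.101) did not pass.

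Genes of mitochondrial fatty acid oxidation rose almost throughout, with 21 of 22 higher, 0 lower and a median of 0.96. The carnitine carrier Slc25a20, which brings long acyl chains into the matrix, had 10.01, 9.96 and 9.88 in EtOH and 11.46, 11.51 and 11.58 in EtOH_Rosi (1.57 ± 0.06, adjusted p = 6.59e-10). The dehydrogenases Acadvl, Acadl and Acads, which take very long, long and short chains, rose by 1.50 ± 0.08, 1.20 ± 0.06 and 1.07 ± 0.07. Hadha, a subunit of the trifunctional protein, rose by 1.16 ± 0.06 and Etfdh, which passes the electrons on, by 1.20 ± 0.07. Acot2, a matrix thioesterase, rose by 1.10 ± 0.08.

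Peroxisomal genes rose in 22 of 25 cases and fell in 0, with a median of 0.56. Ehhadh, the bifunctional enzyme of peroxisomal oxidation, had 8.79, 8.37 and 8.29 against 9.84, 9.96 and 10.04 (1.46 ± 0.11). Hsd17b4 rose by 0.85 ± 0.07 and the import receptor Pex5 by 0.98 ± 0.08. Acot4, a peroxisomal thioesterase, rose by 1.69 ± 0.09 in its brighter probe set and was at 0.02 in its other one, so the sets disagree.

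In the tricarboxylic acid cycle and pyruvate dehydrogenase list 28 of 29 genes rose and 1 fell, with a median of 0.67. Idh3a, a subunit of the cycle's isocitrate dehydrogenase, had 11.29, 11.23 and 11.18 in EtOH and 12.39, 12.38 and 12.46 in EtOH_Rosi (1.18 ± 0.06). Subunits of pyruvate dehydrogenase, Dlat (0.89 ± 0.07), Dld (0.85 ± 0.06) and Pdhb (0.84 ± 0.06), rose, and so did its inhibiting kinases Pdk4 and Pdk2 (1.19 ± 0.09). The 1 fall was in Pdp1, a phosphatase that reactivates the complex (-0.54, adjusted p = 4.82e-05), named after its value was seen.

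Respiratory chain subunits rose in 60 of 65 cases and fell in 0, with a median of 0.55. Cox5a, of complex IV, had 9.76, 9.70 and 9.68 in EtOH and 10.61, 10.66 and 10.60 in EtOH_Rosi (0.91 ± 0.07). Ndufs8, of complex I, rose by 0.82 ± 0.06, and Cyc1, of complex III, by 0.78 ± 0.06. These changes were smaller than those of Cox8b and Cox7a1, which belong to the same list. Branched-chain amino acid catabolism genes, which feed the same mitochondria, rose in 18 of 23 cases and fell in 1, with a median of 0.58. Bckdhb, a subunit of the branched-chain ketoacid dehydrogenase, rose by 1.26 ± 0.08, its partner Dbt by 0.81 ± 0.06 and the mitochondrial carrier Slc25a44 by 0.87 ± 0.07. Slc7a5, the plasma membrane transporter of these amino acids, fell by 0.88 (adjusted p = 4.64e-05). Without EtOH_Rosi 1, 4OHT_Rosi 1 or 4OHT_Rosi 3 there were 2 falls.

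**Figure D3:**
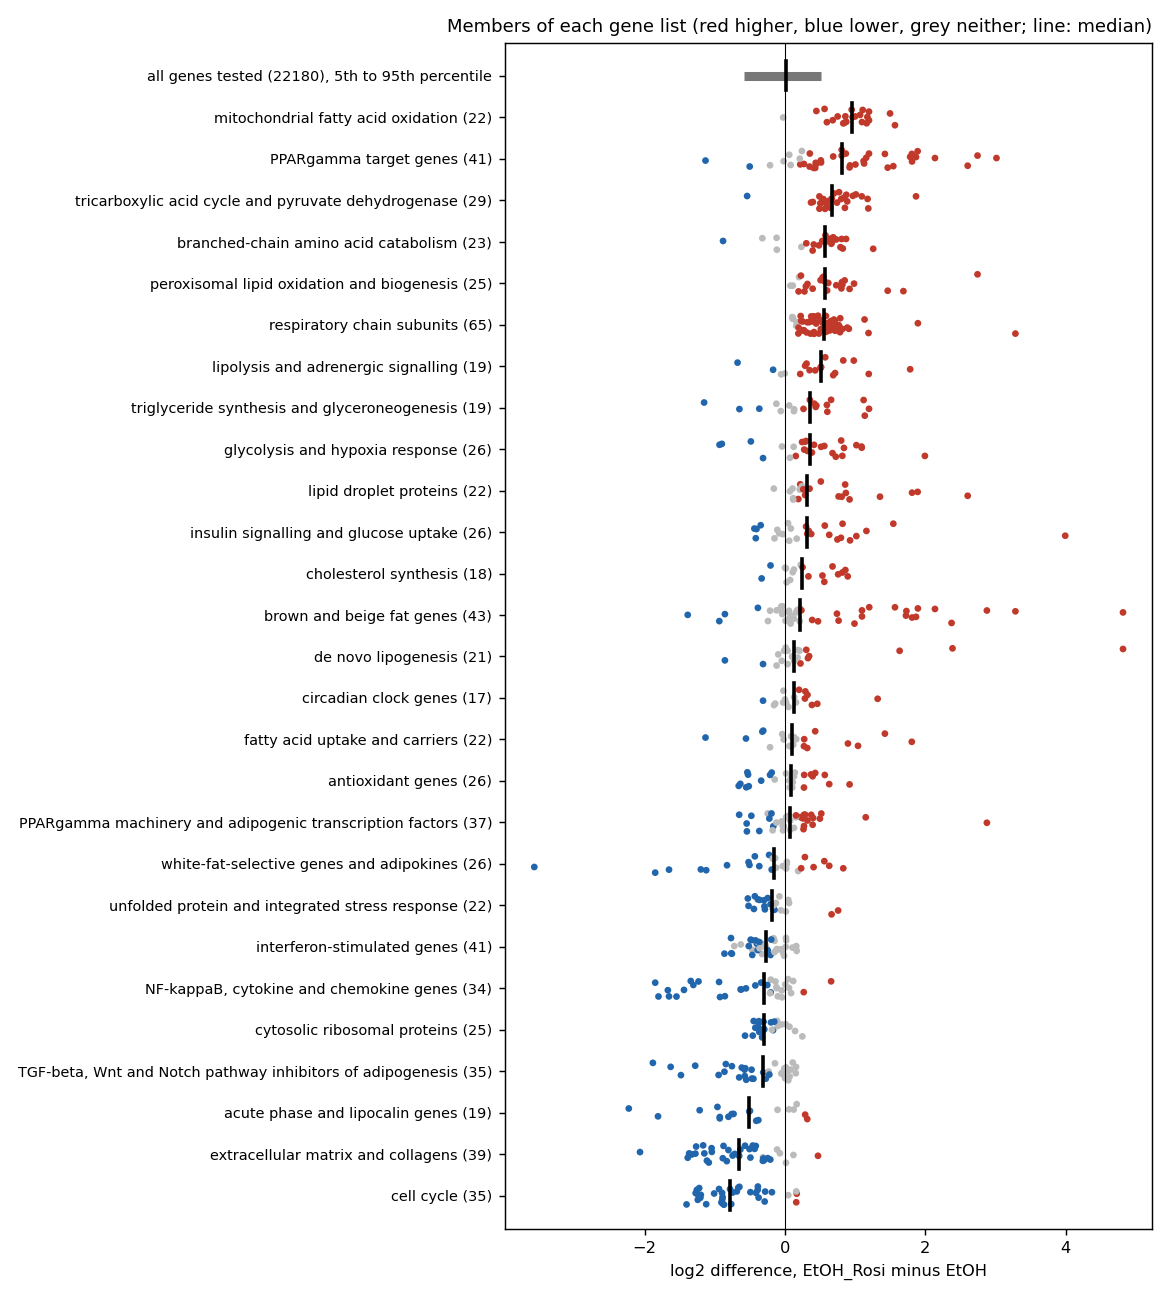
Each point is a member of a list, placed by its log2 difference between EtOH_Rosi and EtOH, with black lines at the list medians and the number tested in brackets. The medians run from -0.78 in cell cycle genes to 0.96 in mitochondrial fatty acid oxidation, and the top bar spans the 5th to 95th percentile of all genes tested.

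Insulin signalling and glucose uptake genes rose in 14 of 26 cases and fell in 4, with a median of 0.31. The insulin-responsive glucose transporter Slc2a4 had 10.29, 10.04 and 9.95 in EtOH and 10.86, 11.08 and 11.12 in EtOH_Rosi (0.93 ± 0.12, adjusted p = 5.55e-05). Akt2, the kinase isoform that serves insulin in fat, rose by 0.57 ± 0.07 and its substrate Tbc1d4 by 0.80 ± 0.07. Hexokinase, Hk2, rose by 1.02 ± 0.12 and the muscle form of glycogen synthase, Gys1, by 0.82 ± 0.08, beside 3.99 for Gys2. The 4 falls, named after their values were seen, were in Akt1 (-0.35), Cblb (-0.44), the insulin receptor adaptor Grb14 (-0.41) and the phosphatase Ptpn1 (-0.42), the last 2 being brakes on insulin signalling.

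Glycolysis and hypoxia genes rose in 19 of 26 cases and fell in 4, with a median of 0.35. Egln3, a prolyl hydroxylase of the hypoxia pathway, had 10.05, 9.75 and 9.50 against 11.71, 11.71 and 11.86 (1.99 ± 0.17, 3.98-fold higher). Bnip3, a mitophagy receptor, rose by 1.09 ± 0.12, the phosphofructokinases Pfkp and Pfkm by 0.80 ± 0.07 and 0.72 ± 0.07, and Vegfa, the vascular growth factor, by 0.56 ± 0.06. The hypoxia factor gene Hif1a itself fell by 0.93 (adjusted p = 1.89e-05), beside adrenomedullin, Adm (-0.90 ± 0.08), and the collagen prolyl hydroxylases P4ha1 (-0.31) and P4ha2 (-0.49). Hif1a, P4ha1 and P4ha2 were named after their values were seen.

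Cholesterol synthesis genes rose in 9 of 18 cases and fell in 2, with a median of 0.24. Hmgcs1 rose by 0.86 ± 0.06, Lss by 0.89 ± 0.10 and Hsd17b7 by 0.82 ± 0.07. The falls, named after their values were seen, were in Ebp (-0.21) and in Srebf2, the transcription factor of the pathway (-0.33). Without EtOH 1 or EtOH_Rosi 2 there was 1. Circadian clock genes rose in 7 of 17 cases and fell in 1, with a median of 0.13. The repressor Bhlhe41 rose by 1.32 ± 0.10, and Per1 by 0.46 ± 0.08, while Per3, named after its value was seen, fell by 0.31 (adjusted p = 0.0161). Without EtOH 1 or EtOH_Rosi 1 there was no fall in the clock list, and without 4OHT_Rosi 1 there were 2.

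White-fat-selective genes and adipokines rose in 6 of 26 cases and fell in 12, with a median of -0.16. Beside Lep, the matrix protein Dpt fell by 1.12 ± 0.07, Wfdc21 by 1.20 ± 0.10, Mest, a gene tied to fat cell enlargement, by 0.83 ± 0.07 and resistin, Retn, by 0.23 (adjusted p = 0.00491). Adiponectin, Adipoq, the insulin-sensitising hormone, had 10.67, 10.50 and 10.54 in EtOH and 11.01, 10.97 and 10.95 in EtOH_Rosi. It rose by 0.41 ± 0.06, 1.33-fold (adjusted p = 0.000115), with no overlap. The clearance receptor of natriuretic peptides, Npr3, rose by 0.83 ± 0.07. Leptin and adiponectin thus moved in opposite directions.

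Inflammatory genes were lower. Of 34 NF-kappaB, cytokine and chemokine genes, 2 rose and 19 fell, with a median of -0.30. The monocyte chemokine Ccl2 had 11.71, 11.74 and 11.66 in EtOH and 10.29, 9.99 and 9.87 in EtOH_Rosi (-1.65 ± 0.18, 3.15-fold lower, adjusted p = 8.07e-06). The cytokine Il6 had 7.74, 7.89 and 7.62 against 5.94, 6.16 and 5.60 (-1.85 ± 0.27, adjusted p = 0.00013). The eosinophil chemokine Ccl11 had 9.87, 10.08 and 10.18 against 8.50, 8.31 and 7.91 (-1.80 ± 0.15). Falls were also measured in Ccl8 (-1.55 ± 0.17), Cxcl12 (-1.34 ± 0.10), the adhesion molecule Vcam1 (-1.31 ± 0.11) and the macrophage growth factor Csf1 (-0.93 ± 0.09). The 2 rises, named after their values were seen, were in Tnfaip3, an inhibitor of NF-kappaB (0.66, adjusted p = 0.000261), and Il1a (0.27). The count of rises was 1 without EtOH 1, EtOH 2, EtOH_Rosi 1 or EtOH_Rosi 2.

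Acute phase and lipocalin genes fell in 13 of 19 cases and rose in 2, with a median of -0.51. The pentraxin Ptx3 fell by 1.22 ± 0.12, complement factor B, Cfb, by 0.81 ± 0.09, ceruloplasmin, Cp, by 0.73 ± 0.08 and Socs3, a feedback inhibitor of cytokine signalling, by 0.76 ± 0.08. Lipocalin, Lcn2, had 11.82, 11.74 and 11.87 against 11.16, 10.96 and 10.52. The rises, named after their values were seen, were in Steap4 (0.32) and Lrg1 (0.29).

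Interferon-stimulated genes fell in 16 of 41 cases and rose in 0, with a median of -0.28, and this count depended on single arrays. Without EtOH 2 or without EtOH_Rosi 3 it was 9. Gbp7, an interferon-inducible GTPase, had 8.55, 8.96 and 8.39 in EtOH and 7.99, 7.85 and 7.76 in EtOH_Rosi (-0.77 ± 0.11, adjusted p = 0.000122). Oasl2 had 9.60, 10.38 and 9.89 against 9.56, 9.16 and 8.84 (-0.77 ± 0.18, adjusted p = 0.00495), and EtOH 2 held its highest value and EtOH_Rosi 3 its lowest. Zbp1 (-0.76 ± 0.17), Stat2 (-0.40 ± 0.10) and Ddx58 (-0.42 ± 0.10) fell as well. Ifit1 had 8.66, 9.61 and 8.19 against 7.97, 8.60 and 7.72, which overlap, and did not pass (adjusted p = 0.0776).

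Extracellular matrix genes fell in 33 of 39 cases and rose in 1, with a median of -0.66. The fibrillar collagen gene Col3a1 had 12.61, 12.74 and 12.71 in EtOH and 11.80, 11.56 and 11.36 in EtOH_Rosi, and Col1a1 12.75, 12.83 and 12.81 against 12.25, 12.12 and 11.87. In both, EtOH_Rosi 3 was the lowest array. The proteoglycan lumican, Lum, fell by 1.36 ± 0.09, the elastic fibre genes Fbln5 and Eln by 1.15 ± 0.12 and 0.89 ± 0.07, and the membrane protease Mmp14 by 1.09 ± 0.11. The rise, named after its value was seen, was in Col5a3 (0.47, adjusted p = 9.19e-05).

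Of 35 TGF-beta, Wnt and Notch genes, 20 fell, 0 rose and 15 did not pass, with a median of -0.31. The secreted Wnt antagonists Sfrp1 and Sfrp4 fell by 1.63 ± 0.16 and 1.48 ± 0.11, the ligand Tgfb3 by 1.28 ± 0.10 and the receptor Notch1 by 0.84 ± 0.06. Notch1 had 9.10, 9.09 and 9.10 in EtOH and 8.27, 8.26 and 8.23 in EtOH_Rosi. The Notch target genes Hes1 and Hey1 fell by 0.86 ± 0.10 and 0.76 ± 0.09.

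Markers of cells other than adipocytes moved in the same direction. Of 20 adipose progenitor and fibroblast markers, 15 fell and 1 rose, with a median of -0.79, and the mean log2 level of the list was 9.24 to 9.27 in EtOH and 8.46 to 8.64 in EtOH_Rosi. The platelet-derived growth factor receptor Pdgfra had 11.97, 12.08 and 11.98 against 10.88, 10.70 and 10.72 (-1.24 ± 0.09). Fap (-1.75 ± 0.12), Dpp4 (-1.65 ± 0.16), Pi16 (-1.41 ± 0.13) and Cd34 (-1.35 ± 0.10), markers of early progenitors or fibroblasts, fell too. Sema3c, named after its value was seen, rose by 0.88 (adjusted p = 4.62e-06), and without EtOH 1 there were 2 rises. Smooth muscle and myofibroblast markers fell in 15 of 16 cases, with a median of -0.83 and list means of 8.35 to 8.49 in EtOH and 7.53 to 7.75 in EtOH_Rosi. Acta2, the actin of myofibroblasts, had 12.83, 12.99 and 12.96 against 12.10, 12.01 and 11.60, and the myosin light chain Myl9 fell by 1.77 ± 0.18. The single rise was in Ldb3 (0.26), named after its value was seen.

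Endothelial markers fell in 13 of 14 cases and rose in 0 (median -0.73, list means of 8.99 to 9.12 against 8.32 to 8.43). Among them were the receptors Eng (-1.11 ± 0.08), Tek (-0.92 ± 0.09) and Kdr (-0.70 ± 0.09) and the transcription factor Erg (-0.94 ± 0.09). Macrophage and leukocyte markers fell in 16 of 21 cases and rose in 0 (median -0.48, list means of 8.09 to 8.31 against 7.61 to 7.76). The macrophage gene Adgre1 had 9.17, 8.67 and 8.69 in EtOH and 8.16, 8.08 and 8.36 in EtOH_Rosi. Mmp12 (-1.40 ± 0.11), Mrc1 (-0.79 ± 0.09), Cd68 (-0.56 ± 0.07) and Lyz2 (-0.44 ± 0.06) fell. Markers of all 4 cell types were thus measured on every array and moved with the matrix, inflammatory and pathway genes above. Their part in those results was not tested, and in bulk cultures fewer cells of a type and less RNA per cell cannot be told apart.

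The adipocyte markers rose in 8 of 11 cases and fell in 0 (median 0.27, list means of 11.71 to 11.81 against 12.18 to 12.20). Markers of skeletal muscle, lymphocytes, Schwann cells and epithelium gave few calls. Of 16 skeletal muscle markers Actn3 fell (-0.45 ± 0.07) and none rose, with 1 rise without EtOH_Rosi 3. Of 9 lymphocyte markers Cd4 fell (-0.29 ± 0.10) and none rose. That fall was lost without EtOH 1, EtOH 3, EtOH_Rosi 1 or EtOH_Rosi 2, and 1 rose without EtOH_Rosi 3. Of 7 Schwann and nerve markers Mbp rose (0.48 ± 0.06), and Ngfr, the neurotrophin receptor, fell from 8.76, 8.96 and 8.66 to 7.16, 6.99 and 6.84. Cdh19 fell by 0.40 ± 0.11, a call lost without EtOH 2. Of 10 mammary and epithelial markers Krt19 rose (0.91 ± 0.08) and none fell, with 1 fall without EtOH 1, EtOH_Rosi 1 or 4OHT_Rosi 3.

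**Figure D4:**
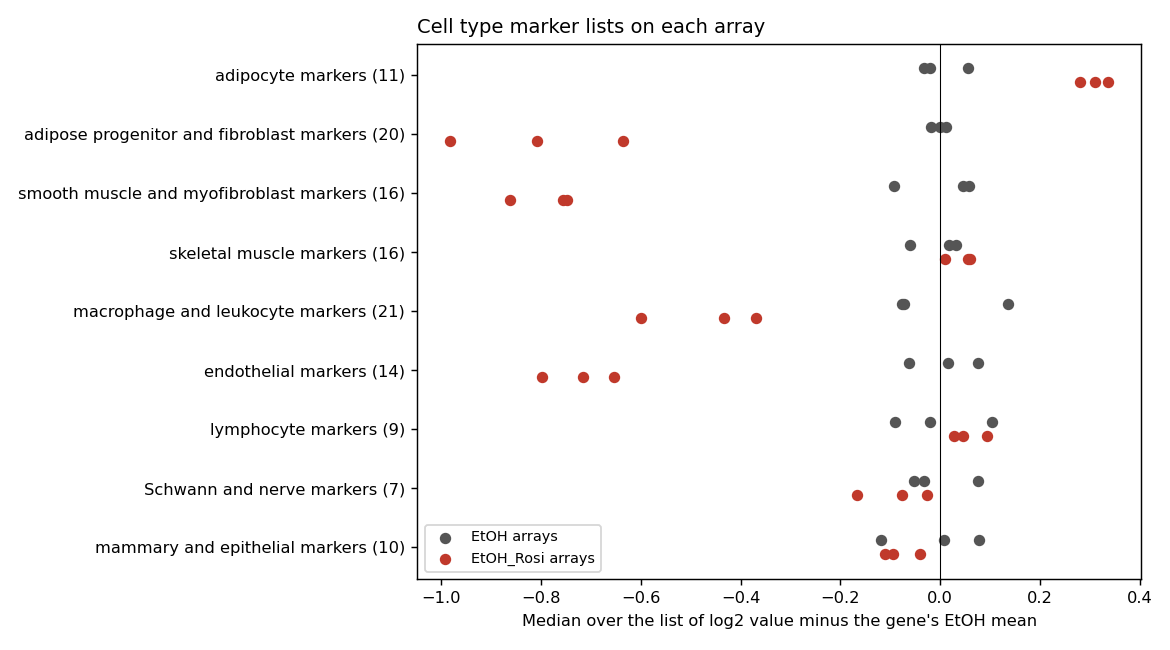
Each row is a marker list and each point an array, placed at the median over the list of the log2 value minus the gene's EtOH mean. Progenitor, smooth muscle, macrophage and endothelial lists lay lower on all 3 EtOH_Rosi arrays, with median differences of -0.79, -0.83, -0.48 and -0.73, while the adipocyte list lay higher.

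Cell cycle genes were lower in 31 of 35 cases and higher in 2, with a median of -0.78. The proliferation marker Mki67 had 9.28, 9.34 and 9.30 in EtOH and 8.13, 8.05 and 7.92 in EtOH_Rosi (-1.27 ± 0.10). Top2a, the topoisomerase of dividing cells, fell by 1.24 ± 0.07, the mitotic kinase Plk1 by 1.24 ± 0.09 and Ccnd1, the cyclin that starts the cycle, by 1.22 ± 0.08. The 2 rises were small and named after their values were seen, in Ccnd2 (0.17) and the cell cycle inhibitor Cdkn1a (0.16). Without EtOH 3 or EtOH_Rosi 3 there was 1, and without EtOH 2, EtOH_Rosi 1 or EtOH_Rosi 2 there was 0. Cytosolic ribosomal protein genes fell in 17 of 25 cases and rose in 0, with a median of -0.30. Rplp0 fell by 0.37 ± 0.06 and Rps3 by 0.46 ± 0.07.

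Genes of the unfolded protein response fell in 13 of 22 cases and rose in 2, with a median of -0.19. The folding enzymes Pdia6 and Pdia3 fell by 0.53 ± 0.06 and 0.44 ± 0.06, while the chaperone Dnajb9 rose by 0.66 ± 0.05 and the oxidase Ero1a by 0.76 ± 0.10. Of 26 antioxidant genes 8 rose and 9 fell, with a median of 0.08. The mitochondrial peroxiredoxin Prdx3 rose by 0.57 ± 0.06 and Gsta4, which clears lipid aldehydes, by 0.92 ± 0.12. The secreted enzymes Gpx3 and Sod3 fell by 0.52 ± 0.06 and 0.53 ± 0.06.

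The same contrast in the 4-hydroxytamoxifen arm, which shares no array with the ethanol arm, asked how far the response recurred there. In that arm 2574 genes rose (11.6%) and 2693 fell (12.1%). Both arms had 2032 rises in common, 63.7% of those after ethanol and 78.9% of those after 4-hydroxytamoxifen, and 2152 falls, 59.4% and 79.9%. Calls in opposite directions were made in 19 genes. Across genes, which are not independent replicates, the differences of the arms correlated at r = 0.842. Among the largest responders after ethanol, Sptlc3 rose by 5.02 there, Elovl3 by 4.51, Gys2 by 3.96 and Tmprss11f by 3.69, and Lep fell by 3.37. Others gave smaller values there, with 2.31 beside 3.10 for Far2, -2.13 beside -3.04 for Chl1 and -1.02 beside -2.31 for Aldh1a2, none of which passed the test of the difference between arms. In Chl1 the array 4OHT_Rosi 3 lay highest of its group, at 8.85 beside 6.59 and 7.66. In Aldh1a2 it did too, at 8.16 beside 6.82 and 7.26. It was the lowest in Far2, at 8.04 beside 8.73 and 8.46. On the first principal component of the 12 arrays it lay at 14.93, beside 25.42 and 21.86 for 4OHT_Rosi 1 and 2. Reg1, at -0.67 beside -2.70, did not pass the test in the 4-hydroxytamoxifen arm (adjusted p = 0.163). Its difference between arms did not pass either (0.0517).

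A direct test of the difference between arms passed in 223 genes, 1.01% of those tested. The count was sensitive to single arrays: it was 90, 68 or 89 without EtOH 1, 2 or 3, 51, 69 or 91 without 4OHT 1, 2 or 3, and 68 or 113 without EtOH_Rosi 2 or 3. Without 4OHT_Rosi 3 it was 93. Ucp1 had 5.62, 5.86 and 5.70 in 4OHT and 6.29, 6.10 and 6.24 in 4OHT_Rosi, a rise of 0.48 ± 0.14 against 2.14 after ethanol (difference of the effects -1.65 ± 0.19, adjusted p = 0.00591). For Cidea the difference after 4-hydroxytamoxifen was 0.18 ± 0.15, which did not pass (difference of the effects -1.63 ± 0.21, adjusted p = 0.00726). Itgad rose by 2.61 against 4.16 (difference -1.55 ± 0.15), Cox8b by 1.98 against 3.28 (-1.30 ± 0.20) and Ppara by 1.99 against 2.88 (-0.88 ± 0.12). Ppargc1a rose by 1.55 against 1.73, and its difference did not pass (adjusted p = 0.748). Prdm16, the floxed gene, was at 0.20 ± 0.10 after 4-hydroxytamoxifen, which did not pass (adjusted p = 0.189), beside 0.74 after ethanol. The difference of its effects, -0.54 ± 0.14, did not pass either (adjusted p = 0.0954).

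Of the brown and beige list 17 of 43 genes rose in the 4-hydroxytamoxifen arm and 5 fell, with 7 passing the test of the difference between arms. Mitochondrial fatty acid oxidation genes rose in 21 of 22 cases there, as many as after ethanol, with a median of 0.74 and 1 gene passing that test. Respiratory subunits rose in 50 of 65 cases (median 0.36, 2 passing the test of the difference). Interferon-stimulated genes fell in 2 of 41 cases after 4-hydroxytamoxifen, with a median of -0.07 beside -0.28 after ethanol. The arms differed before the drug. Group means in 4OHT against EtOH were 11.42 against 9.96 for Oasl2, 10.54 against 9.23 for Zbp1 and 10.67 against 9.73 for Stat2. Gbp3, Gbp7 and Ddx58 were also higher in 4OHT. Whether these starting levels bear on the comparison was not tested. No member of that list passed limma's test of the difference, and among its named members the adjusted p was lowest for Zbp1, at 0.0629.

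Some genes responded more, or in the other direction, after 4-hydroxytamoxifen. Bpifa6, a member of a family of secreted lipid-binding proteins, had 4.60, 4.85 and 4.55 in EtOH and 5.57, 5.92 and 5.59 in EtOH_Rosi, a rise of 1.03 ± 0.10, beside 3.68 ± 0.10 in the other arm (difference 2.66 ± 0.14, adjusted p = 2.25e-06). Mtarc1, a molybdenum enzyme of the mitochondrial outer membrane, fell by 0.62 ± 0.08 after ethanol and rose by 0.61 ± 0.08 after 4-hydroxytamoxifen (adjusted p of the difference 0.000514). Ngfr fell by 1.80 ± 0.16 after ethanol and was at -0.02 ± 0.16 in the other arm, where its level without rosiglitazone was already 6.49, 6.63 and 6.40.

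**Figure D5:**
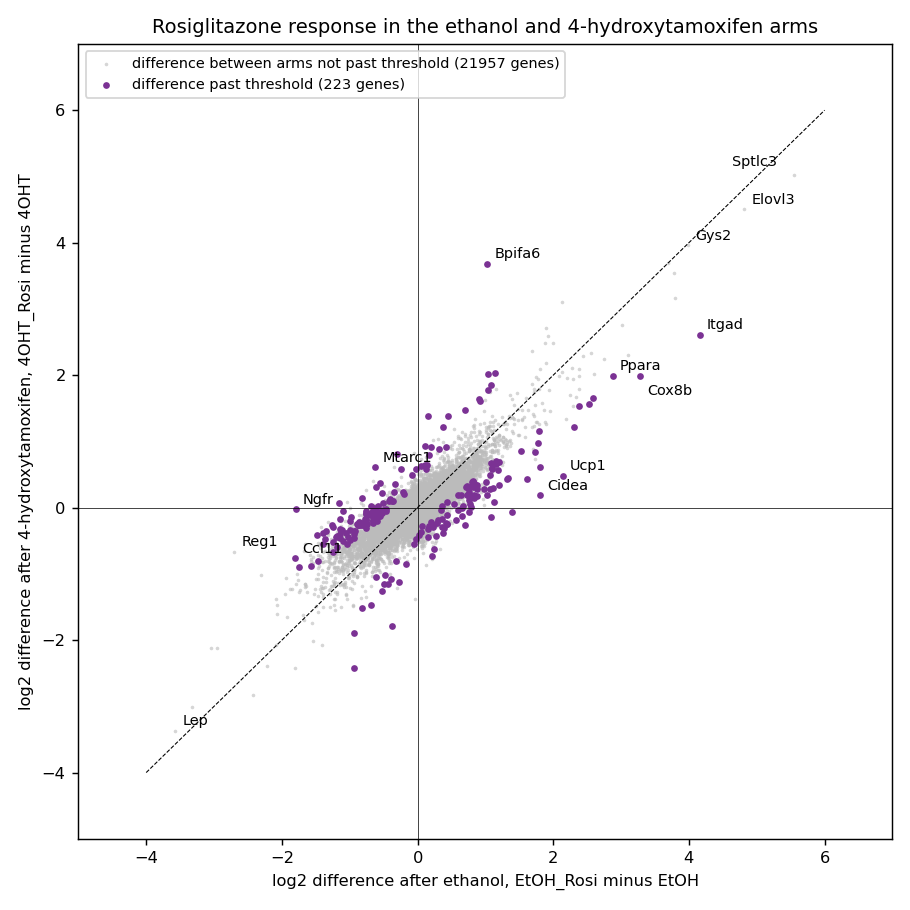
Each point is a gene. The horizontal axis is its log2 difference with rosiglitazone after ethanol, the vertical axis that after 4-hydroxytamoxifen, and the dashed line marks equal differences. Purple points are the 223 genes whose differences passed a test against each other, such as Ucp1 at 2.14 and 0.48 and Bpifa6 at 1.03 and 3.68.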

How the data were processed

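Expression was measured on 12 Affymetrix mouse arrays in 4 groups of 3, from 250 ng of RNA each. The authors deposited log2 values for 41345 probe sets, made with Affymetrix Expression Console per the submitters' processing notes. Which version, summary method and normalization were used is not stated in any label or header read here. Probe sets with several gene symbols (1814) or no gene listed (16010) were left out. Of the 23521 others, 23328 took current names from RefSeq through the Entrez ID. The brightest by its mean over 12 arrays stood for each of 22180 genes.

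All 12 arrays entered a single limma 3.58.1 fit in R 4.3.3, with a mean for each group and eBayes (8 residual and 5.07 prior degrees of freedom). Adjustment was by Benjamini-Hochberg across the 22180 genes, the threshold was 0.05, and no fold minimum or filter on dim genes was set. Fold values come from the log2 difference. Values after ± are limma's standard errors.

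The members and the 36 lists were chosen with earlier results of these data known, so counts are descriptions. The rule for named genes took a panel (Prdm16, Pparg, Ucp1, Cidea, Ppargc1a, Adipoq, Fabp4, Lep), the 12 largest rises and 12 largest falls among genes past the threshold, and, by smallest p, at most 6 members from every list. For the machinery, target and brown lists it took all members, and it added the 6 genes with the smallest p in the test of the difference between arms. For the 12 rises and falls the brighter group had to reach the median level of 6.60 and the groups could not overlap, and predicted genes, small RNAs and olfactory receptors were passed over. Genes in the text outside the rule were chosen after their values were seen, and so were Retn, Fasn, Il6, Lcn2, Ifit1, Col1a1, Col3a1, Acta2 and Adgre1. The fit was tested on simulated data for the contrast after ethanol, with independent noise in 22180 genes. In it 62 genes were changed by 0.5 log2, 78 by 1 and 60 by 2. Of these 75.8%, 98.7% and 100% were recovered, and 4.17% of calls fell on unchanged genes. Far fewer genes were changed there than were called in the data, so these rates need not hold for the real contrast. The alternatives were 8 other settings and leaving out each of 12 arrays. The number of arrays limits the precision. Plots come from matplotlib 3.10.9 (Python 3.11.15).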

Additional observations from a re-analysis of the deposited data

Results flagged for a closer look

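For 31 of the named genes the rosiglitazone effect after 4-hydroxytamoxifen differed from that after ethanol in limma's test of the difference, among the 223 genes of all tested. Values are the effect after 4-hydroxytamoxifen minus the effect after ethanol on the log2 scale, with the Benjamini-Hochberg adjusted p. The count of 223 depended on single arrays and fell to 51 without 4OHT 1.

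Of the genes passing this test, 94 rose after ethanol, and 82 of them had a smaller effect after 4-hydroxytamoxifen. Another 103 fell after ethanol, and 92 of them had a smaller effect after 4-hydroxytamoxifen. The test passed in 7 of 43 brown and beige genes, 3 of 41 PPARgamma targets and 2 of 37 machinery genes. A smaller effect was thus not particular to these lists. In their members that passed, the effect was lower after 4-hydroxytamoxifen. The difference was -1.65 for Ucp1 (adjusted p = 0.00591), -1.63 for Cidea (0.00726), -1.30 for Cox8b (0.0122), -0.88 for Ppara (0.00776), -0.53 for Ckb (0.0406), -0.52 for Sirt3 (0.0392), -0.52 for Letmd1 (0.00726), -0.50 for Retsat (0.0455) and -0.45 for Rxrg (0.0451). It was -1.55 for Itgad (0.00074), -0.69 for the secretion gene Stxbp2 (0.00632), -0.54 for Pfkm (0.0229), -0.53 for the clock output gene Dbp (0.0185), -0.46 for Npr3 (0.0376), -0.42 for Ndufs8 (0.0379) and -0.42 for Dbt (0.0379).

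Of the genes that fell after ethanol, several fell less after 4-hydroxytamoxifen. The difference was 1.77 for Ngfr (0.00726), 1.07 for Sfrp4 (0.00779), 1.04 for Ccl11 (0.0437), 1.02 for Mmp12 (0.0114), 0.73 for Plk1 (0.0205), 0.66 for Hey1 (0.0252), 0.65 for Hes1 (0.0442) and 0.61 for Kdr (0.0379). It was 0.57 for Top2a (0.0249), 0.57 for Mest (0.0156), 0.48 for Cenpe (0.0422) and 0.45 for the matrix gene Thbs2 (0.0354). Without rosiglitazone, most of these genes were already lower after 4-hydroxytamoxifen than after ethanol. Group means without the drug were 6.21 against 7.41 for Sfrp4, 7.26 against 8.37 for Mmp12 and 7.94 against 8.72 for Plk1. With it they were 5.79 against 5.93, 6.88 against 6.98 and 7.43 against 7.48. Ccl11 went the other way, with 10.35 against 10.04 without the drug and 9.58 against 8.24 with it. Mtarc1, which fell after ethanol and rose after 4-hydroxytamoxifen, had 1.23 (0.000514). Ckb and Dbp, given above, changed the other way and rose after ethanol by 0.23 and 0.29. After 4-hydroxytamoxifen they were at -0.30 (limma adjusted p = 0.0116) and -0.24 (limma adjusted p = 0.0139). Bpifa6 with 2.66 (2.25e-06) and the G protein subunit gene Gnao1 with 0.69 (0.00632) rose after ethanol and rose more after 4-hydroxytamoxifen.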

How the results depend on the processing

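Over all alternatives 2733 to 3812 genes rose and 3111 to 3992 fell. Leaving out an array gave 2733 to 3261 rises and 3124 to 3739 falls. Median centring turned the balance, with 3812 rises and 3111 falls, and rises at 55.1% of calls beside 46.8%. Of the 302 named genes, none that was called in the main fit or in a setting changed sign there. Sign changes of genes called in neither were not counted. In a setting 0 to 9 lost the call. The cause of the changes below was not tested. The labels do not say whether arrays with the same replicate number shared a culture, an animal or a batch. Same-numbered arrays deviated together at r of -0.142, 0.0268 and -0.0101. With so few arrays in a group, these values cannot decide whether the arrays were paired. With the replicate number as a block 2985 genes rose, 3450 fell and 116 passed the test of the difference between arms. In that block 1 lipolysis gene fell and 0 cell cycle genes rose, and 2 of 302 named genes lost the call.

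The test of the difference passed in 393 genes with an intensity trend and robust prior, 396 with array weights, 381 among genes at or above the median level and 51 to 331 when an array was left out. With only the 6 arrays compared, 1 lipolysis gene, 2 branched-chain, 0 clock and 0 lymphocyte genes fell and 0 cell cycle genes rose. With the trend 1 lipid droplet gene fell and 12 lipogenesis genes rose. With array weights 1 droplet, 2 branched-chain, 2 clock and 1 epithelial gene fell and 1 lymphocyte gene rose. After quantile normalization 1 droplet gene fell, and 1 NF-kappaB, 1 cell cycle, 1 ribosomal and 2 progenitor genes rose. After median centring 5 machinery, 1 lipolysis and 1 cholesterol gene fell and 11 lipogenesis genes rose. Among genes at or above the median level 1 target, 1 droplet, 2 branched-chain, 2 clock and 1 Schwann gene fell, and 11 lipogenesis and 1 NF-kappaB gene rose; no lymphocyte marker reached that level, so that list has no value there.

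Leaving out an array, the falls ranged from 5 to 9 in machinery, 1 to 2 in targets, 0 to 1 in droplet, 1 to 2 in lipolysis, 1 to 2 in branched-chain, 1 to 2 in cholesterol, 9 to 20 in interferon, 0 to 2 in clock, 0 to 1 in lymphocyte, 1 to 3 in Schwann and 0 to 1 in epithelial genes. The rises ranged from 4 to 10 in lipogenesis, 1 to 2 in NF-kappaB, 0 to 2 in cell cycle, 1 to 2 in progenitor, 0 to 1 in skeletal muscle and 0 to 1 in lymphocyte genes.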
